A study of Mus musculus with 8 samples.

Results

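The injured and the uninjured dorsal root ganglia of the same mice were compared 3 days after ligation of a spinal nerve. The comparison rests on 2 of the 8 libraries of the series, the injured and the contralateral library of day 3, and on the genes with 50 or more reads in the higher of them, which were 13450 of the 53801 gene IDs in the count table. Per the labels, the left L4 spinal nerve of male C57BL/6J mice was tied tightly, and ganglia L3 to L5 were taken from the injured and from the uninjured side of 3 mice per time point and pooled. Every injured-side library therefore also holds neighbouring ganglia whose own nerve was not tied. The other libraries used here are the injured and contralateral sides at day 1 and at day 7, each from another pool of 3 mice, and both sides, left and right, of mice whose label reads no injury (the no-injury pool), whose ratio of sides served as the background. The protocol speaks of sham-operated mice, and the labels do not say whether the no-injury pool was operated. No label used here gives the age of the mice, and no treatment other than the ligation is named for any group. The titles of the no-injury libraries add WT, a genotype mark that the other titles do not carry.

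A dorsal root ganglion contains the somata of sensory neurons, each wrapped by satellite glia, together with Schwann cells, resident macrophages, vessels and a connective tissue capsule that continues into the meninges. A tied nerve cuts the cell body off from its target tissue. Injured sensory neurons are known to induce transcription factors such as Atf3, growth-associated proteins and peptides such as galanin and to lower many channels and receptors of the mature neuron, while macrophages gather in the ganglion and its glia react.

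Levels are given as CPM, reads scaled to library size with TMM factors, and changes as the log2 ratio of injured over contralateral with a prior count of 2. Depth was even, with 20488115 to 21652688 reads per library, and the upper limit for a gene without reads, 3 reads, equalled 0.139 to 0.149 CPM. The 7 sensory neuron markers summed to 7037 CPM in the injured and 7631 CPM in the contralateral library of day 3, within the range of all 8 libraries (6737 to 8187 CPM), so the tissue label held. Some libraries stood apart. The contralateral library of day 1 had the highest neutrophil marker sum (418 CPM for S100a8, S100a9, Ngp and Mpo, against 17.9 CPM on its injured side), and the right library of the no-injury pool had 844 CPM of skeletal muscle markers against 110.5 CPM on the left. In that pool Xist, the RNA that silences an X chromosome in female cells, had 4931 and 4129 reads against at most 3 in the operated libraries, and Y-linked Eif2s3y had 0 and 1 reads against 715 to 808, so the pool went against its male label.

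At day 3, 843 genes (6.27% of 13450) exceeded the contralateral level by 2-fold or more, and 153 (1.14%) lay that far below it. Left over right in the no-injury pool, 53 genes (0.402% of 13192) were higher and 65 (0.493%) lower by that limit. The ratios lay within 1.5-fold for 80.6% of genes at day 3 and for 97.8% left over right. Of the higher genes 123 reached 4-fold and 10 reached 8-fold, and of the lower genes 2 reached 4-fold and none 8-fold. At day 1, 128 genes (0.964% of 13276) were at least 2-fold higher and 201 (1.51%) lower, and at day 7, 423 (3.16% of 13384) and 94 (0.702%). Day 3 thus had the most higher genes of the 3 days, while day 1 had more lower ones. The part of the high neutrophil markers in the contralateral library of day 1, given above, in that lower count was not tested. At the read limit itself, the 40 genes with 49 reads in the higher library had a median absolute log2 ratio of 0.50 and the 33 genes with 50 reads one of 0.69.

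**Figure D1:**
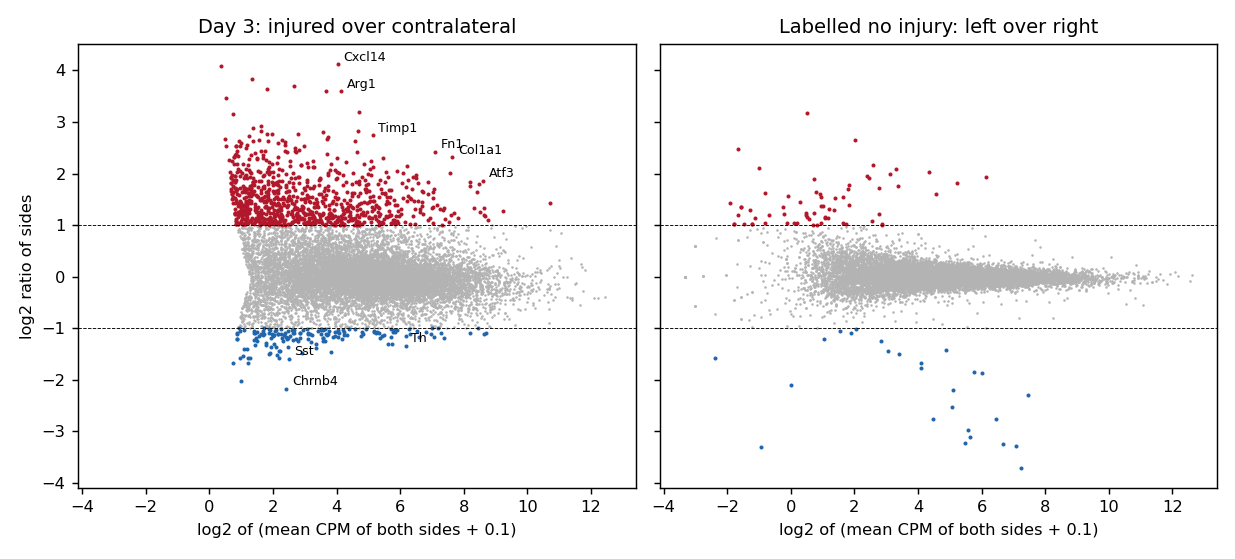
Log2 ratio of sides (y axis) against log2 of the mean CPM of both sides plus 0.1 (x axis) for the 13435 genes with a symbol and 50 or more reads at day 3, for the day 3 pool on the left and the no-injury pool on the right, with red and blue points at or past 2-fold (dashed lines). The left cloud is wider than the right one and has more red than blue points.

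With 1 pooled library a side, the ratio of day 3 has no replicate of its own. To place it against the spread between pools, all 8 libraries were fitted with edgeR (quasi-likelihood F test, pool of mice as block, day 3 injury and injury at days 1 and 7 as separate terms), which assumes that the side difference of day 3 varies like that of the other pools. The spread comes from the difference between the side effects of days 1 and 7 and from the left over right difference without injury. A gene whose side difference changed between days 1 and 7 thus tends to have a wider spread. Not passing does not make its day 3 ratio small. At an adjusted p under 0.05 (Benjamini-Hochberg), 1002 of 17286 genes (5.8%) rose and 784 (4.54%) fell, and among the 13450 genes with 50 reads 976 (7.26%) rose and 781 (5.81%) fell. Below, rose and fell are used for these genes only. The 7.26% and 5.81% are the background for the list counts below, and a count near them is not read as a list result. The test had 2 residual degrees of freedom, and leaving out the no-injury pool left 263 genes higher and 40 lower (2222 and 1888 without the day 1 pool, 2287 and 2100 without the day 7 pool), so the number called without the no-injury pool is given beside each main list. Leaving out that pool leaves only the difference between days 1 and 7 as residual spread. Leaving out day 1 or day 7 leaves only left over right. Without the pool as a block no gene passed in either direction, with 1561 higher and 1492 lower at an unadjusted p under 0.05. In bulk tissue, fewer cells of a type and less RNA per cell cannot be told apart.

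A chemokine gene had the highest ratio. The gene Cxcl14 (chromosome 13, 56288643 to 56296551, GRCm38) stood at 31.3 CPM in the injured and 1.71 CPM in the contralateral library of day 3, at 5.98 and 2.99 CPM at day 1, 5.76 and 3.37 CPM at day 7 and 1.34 and 0.696 CPM left and right in the no-injury pool. The injured library of day 3 was alone in its level, and the contralateral library lay below those of days 1 and 7. Cxcl14 was 17.4-fold higher (log2 ratio 4.12, 95% counting interval 3.71 to 4.72, edgeR adjusted p = 0.000963), the highest ratio of the 13450 genes. Clcf1 (chromosome 19, 4214238 to 4223490), a cytokine that signals through the ciliary neurotrophic factor receptor, was at 23.6 CPM in the injured and 1.85 CPM in the contralateral library of day 3, at 5.98 and 2.1 CPM at day 1, 5.05 and 2.24 CPM at day 7 and 1.62 and 1.11 CPM left and right in the no-injury pool (12.2-fold at day 3, edgeR adjusted p = 0.000913). Its injured side was above the contralateral side at every day, with the widest gap at day 3.

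Il17b and Lgr6 were scarcer. Il17b, a cytokine of the interleukin-17 family, was at 6.41 CPM against 0.428 CPM (log2 3.64, interval 2.94 to 5.06), and Lgr6, a receptor for R-spondins that marks stem cells in skin, at 11.6 against 0.808 CPM (log2 3.69). Both rose by edgeR (adjusted p = 0.0047 and adjusted p = 0.00294), while their injured levels at days 1 and 7 stayed between 0.661 and 2.36 CPM. Arg1, the urea cycle arginase known as a marker of alternatively activated macrophages and induced in injured sensory neurons, was at 32.5 CPM in the injured and 2.61 CPM in the contralateral library of day 3, at 5.63 and 1.36 CPM at day 1, 2.93 and 1.54 CPM at day 7 and 0.335 and 0.0928 CPM left and right in the no-injury pool. Its rise was 12.1-fold (edgeR adjusted p = 0.00808). Ucn2, a urocortin of the corticotropin-releasing peptide family, went the other way in time: the injured libraries of days 1, 3 and 7 held 3.74, 2.51 and 0.755 CPM and the contralateral ones 0.655, 0.142 and 0.0935 CPM (day 3 log2 3.46, edgeR adjusted p = 0.0205). The chromatin protein gene Hmga2, the chloride channel accessory gene Clca3a2 and the folate receptor gene Folr2 were also among the 10 highest ratios, at 2.32, 4.64 and 2.88 CPM on the injured side. Their contralateral levels rested on few reads, and their counting intervals reached from log2 2.30 up to 10.94.

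Matrix genes formed the group that rose most evenly. Of 30 genes for collagens and other matrix proteins all 30 had a ratio above 0, 26 were at least 2-fold higher and 26 rose (edgeR). Their median log2 ratio was 1.43, against 0.00 over all 13450 genes and 0.20 for the same genes left over right. Without the no-injury pool 24 still passed the test. Col1a1, a chain of type I collagen (chromosome 11, 94936224 to 94953042), stood at 333 CPM in the injured and 67 CPM in the contralateral library of day 3, at 66.6 and 43.5 CPM at day 1, 245 and 125 CPM at day 7 and 152 and 139 CPM left and right in the no-injury pool, and rose 4.97-fold (log2 2.31, interval 2.23 to 2.40, edgeR adjusted p = 0.000681). Its contralateral level was below both no-injury libraries at every day. Fibronectin (Fn1), a glycoprotein that cells adhere to, showed the same low contralateral levels, with 230.2 CPM in the injured and 43 CPM in the contralateral library of day 3, 44.5 and 36.3 CPM at day 1, 81.9 and 56.1 CPM at day 7 and 75.9 and 57.2 CPM left and right in the no-injury pool. It rose 5.34-fold over the contralateral side (edgeR adjusted p = 0.00648) and lay 3.46-fold above the no-injury mean.

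The contralateral library of day 3 was below both no-injury libraries for 22 of the 30 matrix genes, with a median log2 ratio of -0.61 to their mean, and the injured library was above both for 26, with a median of 1.03. Of all 13450 genes 39.9% had the contralateral library below both and 44% the injured library above both. The part of this lower contralateral level in the ratios was not tested. Tenascin C (Tnc), an adhesion-modulating glycoprotein made by activated glia and fibroblasts, had the opposite contralateral level, above both no-injury libraries, with 44.3 CPM in the injured and 6.18 CPM in the contralateral library of day 3 and 3.2 and 2.55 CPM without injury (7.08-fold, edgeR adjusted p = 0.00409). Collagen chains Col8a1 and Col18a1, the thrombospondins Thbs1 and Thbs2, and the collagen cross-linking enzyme gene Loxl2 rose 4.44-fold to 4.95-fold. For Thbs1 the sides were close at day 1 (log2 -0.16) and day 7 (0.25).

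Proteases that cut the matrix and their inhibitors moved in the same direction. Of 23 measured, 13 were at least 2-fold higher and 12 rose (edgeR; 8 without the no-injury pool), with a median log2 ratio of 1.32. Timp1, an inhibitor of matrix metalloproteinases, was at 61.6 CPM in the injured and 9.12 CPM in the contralateral library of day 3, at 46 and 12.6 CPM at day 1, 13.6 and 3.97 CPM at day 7 and 1.29 and 1.72 CPM left and right in the no-injury pool (6.69-fold, edgeR adjusted p = 0.00054). All operated libraries, contralateral ones included, were above both no-injury libraries. The metalloproteinase Mmp19 was at 12 against 2.61 CPM (edgeR adjusted p = 0.00647). Mmp15 and Timp2, a membrane-bound metalloproteinase and another inhibitor, were the members with ratios below 0, at log2 -0.02 and -0.31, and passed no test.

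Macrophage genes were higher nearly throughout. Of 24 measured, 23 were at least 2-fold higher, with a median log2 ratio of 1.77 at day 3 against 0.02 at day 1, 1.12 at day 7 and 0.33 left over right. The 4 markers of the type, Csf1r, Adgre1, C1qa and Cd68, summed to 132 and 36.6 CPM at day 3, 27.1 and 26.9 CPM at day 1, 133 and 54 CPM at day 7 and 56.7 and 46.3 CPM without injury. Only 10 passed the edgeR test, 1 without the no-injury pool. Cd68, a lysosomal protein of phagocytes, stood at 22.2 CPM in the injured and 3.42 CPM in the contralateral library of day 3, at 3.64 and 3.23 CPM at day 1, 8.78 and 5.05 CPM at day 7 and 4.21 and 3.16 CPM left and right in the no-injury pool, and rose 6.35-fold (log2 2.67, interval 2.34 to 3.08, edgeR adjusted p = 0.00314). The injured library of day 3 was above the other 7. Trem2, the lipid-sensing receptor of tissue macrophages, was at 7.61 CPM in the injured library of day 3 and 7.32 CPM in that of day 7, with 1.19 and 2.62 CPM contralaterally and 1.29 and 1.67 CPM without injury (edgeR adjusted p = 0.0365). The integrin Itgam and the receptor Cd84 had ratios of log2 2.33 and 2.27 and did not pass (edgeR adjusted p = 0.106 and adjusted p = 0.0758). Both were higher on the contralateral than on the injured side at day 1.

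The 6 measured monocyte genes were all at least 2-fold higher, and Thbs1, which fibroblasts and other cells express too, was the member that rose. All 4 measured mast cell genes had ratios above 0 (median log2 1.24), and the tryptase gene Tpsb2 rose, at 3.02 against 0.713 CPM (edgeR adjusted p = 0.0183). The no-injury pool held more of it, 3.82 and 3.99 CPM, so that against that pool Tpsb2, the carboxypeptidase gene Cpa3 and the protease gene Mcpt4 were lower in the injured library (log2 -0.36, -0.03 and -0.86). Lymphocyte genes were at the limit of detection, with none of 12 at 50 reads and a sum of 4.27 and 3.75 CPM.

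Blood markers also differed between the sides, and their part in the results was not tested. Of 7 measured erythroid genes 6 were at least 2-fold higher and none passed the test. The 4 red cell markers Hba-a1, Hbb-bs, Alas2 and Slc4a1 summed to 750.5 CPM in the injured and 295 CPM in the contralateral library, in the other libraries to between 296 and 771 CPM, and at days 1 and 7 the sum was higher on the contralateral side. Reads of the near-identical globin copies can be split between them. Of 11 neutrophil genes all had ratios above 0 and none passed the test. Their list summed to 116 against 61 CPM at day 3, to 39.3 and 587 CPM at day 1 and to 311 and 86.4 CPM left and right without injury, and all 11 differed by at least 2-fold between the latter.

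Chemokine and cytokine genes were higher as well. Of 19 measured, all had ratios above 0, 14 were at least 2-fold higher and 11 rose (edgeR; 7 without the no-injury pool), with a median of 1.94. The other 14 of the list had fewer than 50 reads, among them the genes for tumour necrosis factor (Tnf) and interleukin 1 (Il1a, Il1b). Ccl9, a ligand of the receptor Ccr1, was at 20.8 CPM in the injured and 2.9 CPM in the contralateral library of day 3, at 11 and 5.61 CPM at day 1, 6.61 and 2.43 CPM at day 7 and 2.68 and 2.32 CPM left and right in the no-injury pool (6.96-fold, edgeR adjusted p = 0.0014). Ccl7, a monocyte attractant, was at 6.08 against 0.808 CPM (edgeR adjusted p = 0.00724). The macrophage growth factor gene Csf1, known to be made by axotomised sensory neurons, was at 176 against 58 CPM at day 3 and 204 against 45.4 CPM at day 7, and did not pass (edgeR adjusted p = 0.187).

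Among 16 complement genes, 7 rose and 1 fell (edgeR; 5 and 0 without the no-injury pool). The receptors for the anaphylatoxins, C3ar1 and C5ar1, were at 10.9 against 1.95 CPM and 9.01 against 1.61 CPM (edgeR adjusted p = 0.00337 and adjusted p = 0.00854). C1qb, a chain of the recognition molecule of the classical pathway, was at 51 against 12.7 CPM (edgeR adjusted p = 0.0232), and the stabiliser of the alternative pathway Cfp at 13.2 against 3.52 CPM. The member that fell was Cd55, which shields cells from complement: it was at 225 CPM in the injured and 429 CPM in the contralateral library of day 3, at 334 and 479 CPM at day 1, 246 and 439.8 CPM at day 7 and 598 and 590.5 CPM left and right in the no-injury pool (log2 -0.93, edgeR adjusted p = 0.00705). The injured library of day 3 held the lowest Cd55 level of the 8.

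Genes of the cell cycle were higher in the day 3 library without passing the test. Of 32 measured, 19 were at least 2-fold higher and 30 had ratios above 0 (median log2 1.37), yet only the cyclin gene Ccnd1 rose. The median was -0.89 at day 1, 0.61 at day 7 and 0.28 left over right. Top2a, the topoisomerase of dividing cells, was at 13.3 CPM in the injured and 2.23 CPM in the contralateral library of day 3, at 0.897 and 8.98 CPM at day 1, 10.5 and 4.81 CPM at day 7 and 4.68 and 2.79 CPM left and right in the no-injury pool (log2 2.53, interval 2.13 to 3.05, edgeR adjusted p = 0.521). Its injured library of day 3 was the highest of the 8, while at day 1 the contralateral library exceeded the injured one (log2 -3.19). Mki67, which encodes the proliferation marker Ki-67, was highest in that contralateral library of day 1, at 21.8 CPM, against 15.5 CPM in the injured and 3.47 CPM in the contralateral library of day 3 (edgeR adjusted p = 0.565). Without the day 1 pool 18 of the 32 passed the test, and without the day 7 pool as many. Both of these fits take their residual spread from left over right of the no-injury pool alone, so the counts are not independent. The neutrophil genes of day 1, given above, were also higher on the contralateral side.

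Since 30 of the 32 genes lay above 0, their promoters were searched in RefSeq sequence (GRCm38.p6), in the 250 bases before each start. The CHR element, TTTGAA on either strand, is known from promoters of late cell cycle genes and often stands with a CCAAT box. Of 35 genes 29 matched, with 30 windows. The CHR letters were in 9 of 30 windows (30%) against 15.99% of all 32851 windows, CCAAT on either strand in 23 (76.67%) against 33.85%, and both in 9 (30%) against 5.55%. The 2 cell cycle genes with both motifs and the highest ratios at day 3 show how they lie, with both motifs in capitals, 5′ to 3′ on the strand of the gene, which is the minus strand for both. Top2a lies at chr11:99024190-99024439 and Mki67 at chr7:135716380-135716629.
Top2a: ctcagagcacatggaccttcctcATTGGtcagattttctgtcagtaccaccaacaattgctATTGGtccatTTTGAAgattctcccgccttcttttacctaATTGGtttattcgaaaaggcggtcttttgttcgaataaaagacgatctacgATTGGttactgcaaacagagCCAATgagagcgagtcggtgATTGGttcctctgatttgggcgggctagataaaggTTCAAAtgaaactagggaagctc
Mki67: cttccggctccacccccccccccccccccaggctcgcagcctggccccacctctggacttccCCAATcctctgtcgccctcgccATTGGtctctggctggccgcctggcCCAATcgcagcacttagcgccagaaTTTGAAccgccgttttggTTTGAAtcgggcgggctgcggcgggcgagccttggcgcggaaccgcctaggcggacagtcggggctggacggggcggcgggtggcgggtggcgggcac
Among the cell cycle genes with 50 reads, the 9 with both motifs had a median day 3 log2 ratio of 1.66 and the 17 without both one of 0.98. A match describes letters and is not a binding site.

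Interferon-induced genes were higher by less. Of 32 measured, 30 had ratios above 0, 6 were at least 2-fold higher and 8 rose (edgeR; 1 without the no-injury pool). Their median log2 ratio was 0.69 at day 3, 0.68 at day 1 and 0.27 at day 7. Zbp1, a sensor of left-handed nucleic acids, was at 3.39 against 0.808 CPM (edgeR adjusted p = 0.0325), the antiviral GTPase Mx1 at 3.44 against 0.998 CPM (edgeR adjusted p = 0.0709) and the guanylate-binding protein Gbp2 at 31.5 CPM in the injured and 14.4 CPM in the contralateral library of day 3, at 25 and 11.7 CPM at day 1, 17.1 and 14 CPM at day 7 and 16.4 and 13.1 CPM left and right in the no-injury pool (edgeR adjusted p = 0.0832). In antigen presentation all 15 measured genes had ratios above 0 with a median of 0.54, none reached 2-fold and 3 rose (none without the no-injury pool), among them B2m, the light chain of class I molecules, at 257 against 147 CPM (edgeR adjusted p = 0.0198). The contralateral library of day 3 was below both no-injury libraries for 13 of the 15, against 39.9% of all 13450 genes. The injured library was above both for 8 and below both for 5, with a median log2 ratio of 0.09 to their mean. The part of the contralateral level in these ratios was not tested.

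The core of the interferon-stimulated response element, TTTC, any 2 bases and TTTC again on either strand, was in 12 of 28 promoter windows of the interferon list (42.86%; 23 genes matched) and in 2.98% of all 32851 windows. Gbp2 is shown as the better-measured of the 2 members with the element and the highest ratios, at chr3:142620413-142620662 on the plus strand, with the element in capitals.
Gbp2: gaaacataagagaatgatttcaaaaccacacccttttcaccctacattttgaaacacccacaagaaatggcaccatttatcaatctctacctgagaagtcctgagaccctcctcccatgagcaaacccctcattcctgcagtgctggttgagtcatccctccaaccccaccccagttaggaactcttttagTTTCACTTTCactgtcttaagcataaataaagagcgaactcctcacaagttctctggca
The AP-1 site TGANTCA, the letters bound by Fos and Jun dimers, was in 4 of 33 windows of the injury and regeneration list (12.12%; 26 genes matched) against 6.75% of all windows. Sprr1a, described next, is shown as the better-measured of the 2 members with the site and the highest ratios. It holds the site in 2 places, in capitals, at chr3:92485882-92486131 on the minus strand.
Sprr1a: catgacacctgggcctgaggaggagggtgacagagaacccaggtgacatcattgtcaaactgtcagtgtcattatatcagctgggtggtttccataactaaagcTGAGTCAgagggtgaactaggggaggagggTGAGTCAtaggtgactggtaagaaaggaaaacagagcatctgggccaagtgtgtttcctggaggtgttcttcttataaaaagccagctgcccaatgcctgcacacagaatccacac
Interferon genes with the element and 50 reads had a median day 3 log2 ratio of 0.72 (11 genes) and those without it 0.44 (11 genes).

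Injury and regeneration genes were higher on the injured side in 32 of 33 measured cases, by at least 2-fold in 19, and 17 rose (edgeR; 10 without the no-injury pool), with a median of 1.43. Atf3, a transcription factor induced by axotomy, rose 3.64-fold, to 618 against 169.6 CPM (edgeR adjusted p = 0.00634), and the no-injury libraries held 10.8 and 11.1 CPM. Sprr1a, a growth-associated protein, stood at 458 CPM in the injured and 128 CPM in the contralateral library of day 3, at 9.32 and 3.51 CPM at day 1, 912 and 129 CPM at day 7 and 0.143 and 0.325 CPM left and right in the no-injury pool. It was 3.56-fold higher at day 3 and did not pass the test (edgeR adjusted p = 0.0917). The sides differed by log2 1.39 at day 1 and 2.82 at day 7. The cytokine gene Il6 and Cckbr, the gastrin and cholecystokinin receptor, rose from 0.618 to 2.92 CPM and from 6.56 to 26.7 CPM across the sides (edgeR adjusted p = 0.0215 and adjusted p = 0.029).

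Of the 10 injury neuropeptide genes measured, 8 were at least 2-fold higher and 3 rose (edgeR; 2 without the no-injury pool), and the list median was 1.64 at day 3 and 2.31 at day 7. Galanin (Gal) was at 457 CPM in the injured and 136 CPM in the contralateral library of day 3, at 47.3 and 22 CPM at day 1, 534 and 82.9 CPM at day 7 and 8.27 and 10.3 CPM left and right in the no-injury pool (edgeR adjusted p = 0.264), and neuropeptide Y (Npy) at 49.7 against 14.3 CPM (edgeR adjusted p = 0.312). Crh, which encodes corticotropin-releasing hormone, rose from 1.9 to 6.78 CPM across the sides (edgeR adjusted p = 0.028). Nmb, the gene of neuromedin B, was the member below 0, at 49.2 against 82.9 CPM. The peptides of uninjured sensory neurons had ratios below 0 in 6 of 6, among them substance P (Tac1) at 129 against 222 CPM and the second CGRP gene (Calcb) at 50.9 against 84.7 CPM. Of these 6 somatostatin (Sst) alone fell, from 8.41 to 2.74 CPM (edgeR adjusted p = 0.019), and none did without the no-injury pool.

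The contralateral library of day 3 carried many of these injury genes too. For 33 genes with 500 or more reads in the injured library, at least 2-fold over the contralateral side and at least 8-fold over the no-injury mean, the contralateral rise over that mean was taken as a percentage of the injured rise. This rule and the division at 20% were chosen after the values were seen, so the shares are a description. For 26 genes the share lay between 21.8% and 36.6% (median 27.0%), and 15 of these are in the injury and neuropeptide lists. It was 26.2% for Atf3, 28% for Sprr1a, 28.2% for Gal, 28.2% for Npy, 22.9% for the neuronal transcription factor gene Sox11 and 23.7% for the growth arrest gene Gadd45a. The same 26 genes had a median share of 15.9% at day 7 and 31.2% at day 1. The range at day 3 is bounded by the division at 20% and by the 2-fold limit, and at day 7 the same genes ran from 12.6% to 75.8%.

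The other 7 genes had a share under 20%, among them Clcf1 (2.18%), Cxcl14 (2.29%), Arg1 (7.42%), Tnc (7.96%) and Timp1 (12.7%). Of the 7 genes, 1 is in the injury list, Arg1. At day 7 their shares ran from 8.88% to 49.5%, which overlaps the range of the 26 on that day. Mt2, the metallothionein gene, had the highest share of the 33 at day 3 (36.6%) and at day 7 (75.8%). The shares depend on the no-injury libraries, whose pool went against its sex label. The median share of all 33 was 25.1%. It was 25.1% for 45 genes with 200 reads as the limit and 24.6% for 72 genes, over 1.5 times as many, with 4-fold over the no-injury mean in place of 8-fold.

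**Figure D2:**
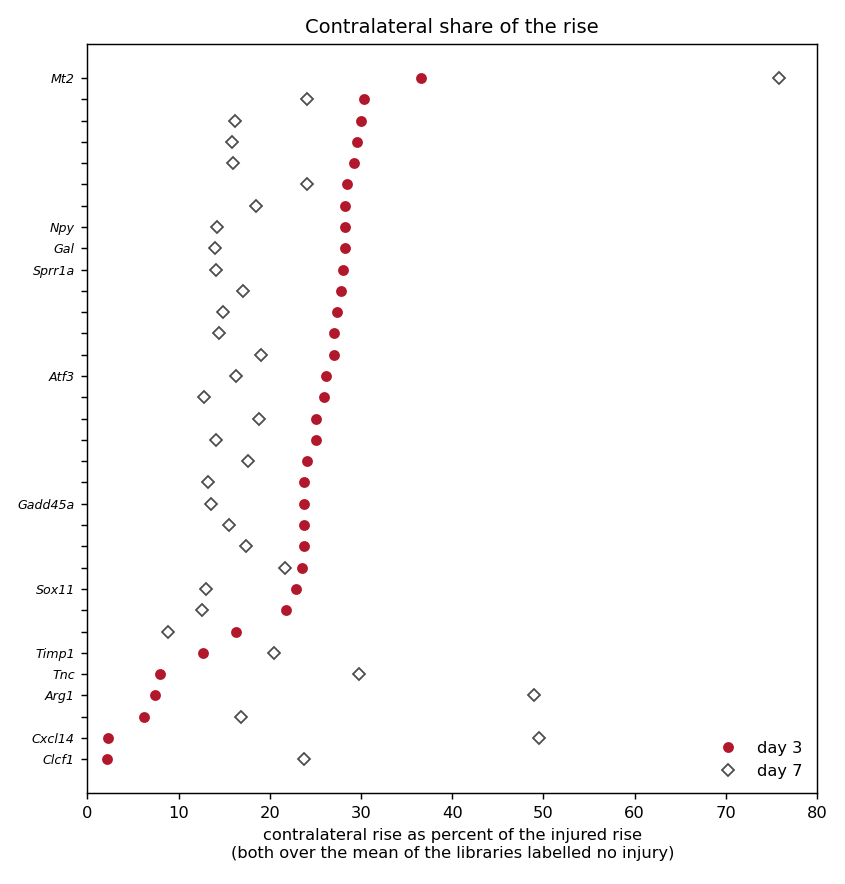
Contralateral rise as a percentage of the injured rise, both over the mean of the no-injury libraries, for 33 genes ordered by the day 3 value (y axis, genes discussed in the text labelled); filled circles are day 3 and open diamonds day 7, 1 pool each. At day 3, 26 genes lie between 21.8% and 36.6% and 7 below 20%.

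In the repair Schwann cell list some growth factor genes rose, from low levels, and others did not. Of 18 measured genes 6 rose and 1 fell (edgeR; 1 and 0 without the no-injury pool), against 7.26% and 5.81% of all 13450 genes. The count that fell lay near that share. Besides Clcf1, glial cell line-derived neurotrophic factor (Gdnf) was at 5.29 CPM in the injured and 0.665 CPM in the contralateral library of day 3, at 1.15 and 0.281 CPM at day 1, 0.33 and 0.28 CPM at day 7 and 0.143 and 0.232 CPM left and right in the no-injury pool (edgeR adjusted p = 0.0202), and the leukaemia inhibitory factor gene Lif at 5.06 against 0.855 CPM (edgeR adjusted p = 0.0171). The injured library of day 3 was the highest of the 8 for both Gdnf and Lif. Neuregulin 1 (Nrg1), the axonal signal to Schwann cells, fell from 129.7 to 95 CPM across the sides (edgeR adjusted p = 0.0442). The hepatocyte growth factor gene Hgf was at 9.29 against 13.5 CPM and the fibroblast growth factor gene Fgf5 at 2.41 against 2.85 CPM, and neither passed (edgeR adjusted p = 0.128 and adjusted p = 0.683). The low-affinity neurotrophin receptor gene Ngfr, which neurons express as well, was at 636 against 850.3 CPM (edgeR adjusted p = 0.0713).

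Myelin genes were higher as well. Of 20 genes of myelinating Schwann cells 19 had ratios above 0 (median log2 0.78), 5 were at least 2-fold higher and 7 rose, as many as without the no-injury pool. The 4 Schwann cell markers, which include Mbp, Prx and Pmp22, summed to 6784 CPM in the injured and 4170 CPM in the contralateral library of day 3, and to 4044 and 3858 CPM at day 1, 7203 and 6696 CPM at day 7 and 4881 and 6871 CPM left and right without injury. The left and right libraries thus differed too, and the part of the Schwann cell content of a library in these ratios was not tested. Gjb1, the gap junction protein of myelin, was at 29.1 CPM in the injured and 7.37 CPM in the contralateral library of day 3, at 9.12 and 9.59 CPM at day 1, 14.3 and 13.3 CPM at day 7 and 7.98 and 9.28 CPM left and right in the no-injury pool (3.91-fold, edgeR adjusted p = 0.0014). Its sides were level at days 1 and 7. Gldn, the gliomedin that helps to form nodes of Ranvier, was at 109 against 27.1 CPM and Mag, a myelin-associated adhesion molecule, at 48.8 against 17.7 CPM (edgeR adjusted p = 0.00076 and adjusted p = 0.0202).

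Of 20 satellite glia genes 16 had ratios above 0 (median log2 0.37). In this list 6 rose (edgeR; 2 without the no-injury pool). These were cytoskeletal in part: Nes, the intermediate filament nestin, was at 142 CPM in the injured and 37.4 CPM in the contralateral library of day 3, at 52.3 and 30.4 CPM at day 1, 66.5 and 61.3 CPM at day 7 and 47.8 and 51.7 CPM left and right in the no-injury pool (edgeR adjusted p = 0.0143), vimentin (Vim) at 1037 against 526 CPM (edgeR adjusted p = 0.00321) and Gfap, the filament of reactive glia, at 11.4 against 3.61 CPM (edgeR adjusted p = 0.00993). Gfap was already at 17.7 against 5.89 CPM at day 1. Which cells of the bulk tissue held the RNA of these filament genes was not tested. Among the markers of the type, Fabp7 and the inward rectifier channel gene Kcnj10 were at 197 against 215 CPM and 92 against 81.4 CPM. The water channel gene Aqp4 was at 7.66 against 12.4 CPM. None of these 3 passed the test. The other markers, Glul and Cdh19, were higher on the injured side, at 618 against 423 CPM and 116 against 88.2 CPM. Together the markers summed to 1023 CPM in the injured and 808 CPM in the contralateral library of day 3. The injured sum was the highest of the 8 libraries.

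Vessel genes rose by smaller factors. Of 21 endothelial and mural genes 20 had ratios above 0, 6 were at least 2-fold higher and 9 rose (edgeR; 3 without the no-injury pool). Cdh5, the cadherin of endothelial junctions, was at 38.1 CPM in the injured and 16.3 CPM in the contralateral library of day 3, at 21.6 and 15.1 CPM at day 1, 22.9 and 19.4 CPM at day 7 and 24.9 and 23.7 CPM left and right in the no-injury pool (edgeR adjusted p = 0.00316). The smooth muscle gene Tagln was at 36.1 against 14 CPM and the pericyte receptor gene Notch3 at 15 against 6.89 CPM. Left and right without injury, Tagln was at 21 and 24.4 CPM and Notch3 at 13.3 and 10.6 CPM. For 17 of the 21 genes the contralateral library of day 3 was below both no-injury libraries, against 39.9% of all 13450 genes. The injured library was above both for 16. The part of the contralateral level in these ratios was not tested. Rgs5, a pericyte marker, had a ratio of log2 -0.35 and passed no test.

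Of 11 fibroblast genes 5 rose (edgeR; 3 without the no-injury pool), with the fibroblast activation protein Fap at 6.04 against 1.85 CPM (edgeR adjusted p = 0.0218), while the stromal surface marker Cd34 was at 56.8 against 70.7 CPM. The no-injury libraries held 5.16 and 3.85 CPM of Fap. Of the 11 genes, 7 had the contralateral library of day 3 below both no-injury libraries. The injured library was above both for 6 and below both for 4, with a median log2 ratio of 0.23 to their mean. Of 19 genes of the meninges and perineurium 7 rose and 1 fell (edgeR; 3 and 0 without the no-injury pool). Crabp2, a carrier of retinoic acid, was at 21.8 CPM in the injured and 4.09 CPM in the contralateral library of day 3, at 4.68 and 2.38 CPM at day 1, 5.38 and 4.3 CPM at day 7 and 7.84 and 6.08 CPM left and right in the no-injury pool (5.23-fold, edgeR adjusted p = 0.00401). Aldh1a2, which makes retinoic acid, was at 6.68 against 2.9 CPM (edgeR adjusted p = 0.0271), and the no-injury libraries held more than either, 9.75 and 8.31 CPM. The basonuclin gene Bnc1 fell, from 2.42 to 0.696 CPM across the sides (edgeR adjusted p = 0.0449), on few reads. In this list the contralateral library of day 3 was below both no-injury libraries for 16 of 19 genes, against 39.9% of all 13450.

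The signalling lists differed in how many members rose, and over all 13450 genes 7.26% rose and 5.81% fell (edgeR). The counts for Wnt signalling lay near these shares, as did the single members that fell. Nothing is read from those counts about the lists. Of 23 genes of the activin, TGF-beta and BMP pathways 7 rose and 1 fell (edgeR; 4 and 0 without the no-injury pool). Tgfbi, a matrix protein induced by TGF-beta, was at 183 CPM in the injured and 51.5 CPM in the contralateral library of day 3, at 63.4 and 41.9 CPM at day 1, 141 and 80.2 CPM at day 7 and 102 and 96.4 CPM left and right in the no-injury pool (edgeR adjusted p = 0.000681), Ltbp1, which holds latent TGF-beta in the matrix, at 25.6 against 6.22 CPM, and the activin subunit gene Inhba at 7.29 against 2.42 CPM (edgeR adjusted p = 0.00318 and adjusted p = 0.0284). The member that fell was the decoy receptor gene Bambi, from 11.9 to 6.73 CPM across the sides (edgeR adjusted p = 0.0322). Of 21 genes of Wnt signalling 2 rose, Lgr6 and the secreted Wnt inhibitor gene Wif1 (6.68 against 0.903 CPM, edgeR adjusted p = 0.0107), and the Dickkopf family gene Dkk3 fell, from 182 to 121 CPM (edgeR adjusted p = 0.0387). Of 18 immediate early genes 10 rose (edgeR; 1 without the no-injury pool), the highest of them Fos at 2.13-fold, and Fosl1 had the highest ratio of the list without passing (log2 2.02, edgeR adjusted p = 0.213).

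**Figure D3:**
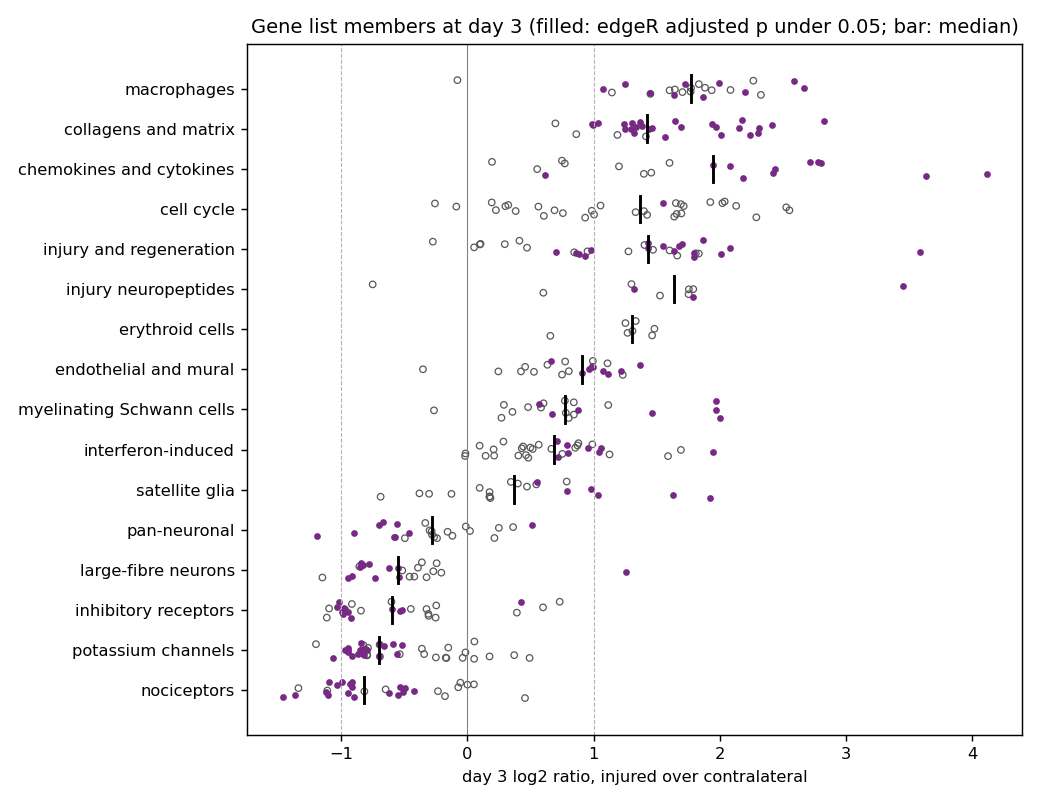
Day 3 log2 ratio of injured over contralateral (x axis) of the members with 50 or more reads in 16 of the 41 gene lists (y axis); each circle is 1 gene, filled where edgeR's adjusted p is under 0.05, the bar is the list median and dashed lines mark 2-fold. All matrix and chemokine genes and all macrophage genes but 1 lie to the right of 0, and channel, receptor and nociceptor genes mostly between 0 and -1.

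Most lists with a median well below 0 were neuronal, the lowest being nicotinic receptors (-0.98), nociceptors (-0.82) and potassium channels (-0.70). The nociceptor list also holds genes of low-threshold C fibres. Of its 29 genes 18 fell and none rose (edgeR), and 8 were at least 2-fold lower. Without the no-injury pool 2 passed the test, and with DESeq2 on all libraries 14. The median log2 ratio of the list was -0.05 at day 1, -0.43 at day 7 and -0.01 left over right. The sodium channel gene Scn10a, which carries the action potential of nociceptors, was at 534 CPM in the injured and 1019 CPM in the contralateral library of day 3, at 912 and 939.9 CPM at day 1, 570.5 and 889 CPM at day 7 and 1147 and 1143 CPM left and right in the no-injury pool. It fell by 1.91-fold over the contralateral side (log2 -0.93, interval -0.97 to -0.90, edgeR adjusted p = 0.0321). The injured libraries of days 3 and 7 lay below the other 6, while at day 1 the sides were level.

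Its neighbour on chromosome 9, Scn11a, which sets the resting excitability of the same neurons, was at 251 against 545 CPM at day 3 and 459 against 476 CPM at day 1 (edgeR adjusted p = 0.0178). Slc17a8, the vesicular glutamate transporter of touch-sensing C fibres, fell from 20.8 to 7.47 CPM across the sides (log2 -1.47, edgeR adjusted p = 0.0329), and Mrgprb4, a receptor of fibres that respond to stroking, from 7.93 to 3.02 CPM (edgeR adjusted p = 0.0127). Th, the tyrosine hydroxylase that marks low-threshold C fibres, was at 40.9 CPM in the injured and 104 CPM in the contralateral library of day 3, at 89.1 and 89.9 CPM at day 1, 41.3 and 68.6 CPM at day 7 and 80.4 and 91.2 CPM left and right in the no-injury pool. It had the lowest ratio of all genes with 1000 or more reads in the higher library (log2 -1.34, interval -1.46 to -1.23) and did not pass the test (edgeR adjusted p = 0.058). The contralateral library of day 3 was the highest of the 8. Gfra3, the artemin receptor, and the receptor tyrosine kinase gene Ret were the measured members of the nociceptor list above 0, at log2 0.46 and 0.05.

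Large-fibre genes fell in 10 of 22 cases and 1 rose (edgeR; 0 fell without the no-injury pool), with a median of -0.55. The member that rose was Spp1, osteopontin, which macrophages and other cells express too, at 515 against 215 CPM (edgeR adjusted p = 0.00202). Of 23 pan-neuronal genes 8 fell and 1 rose (edgeR; 1 and 0 without the no-injury pool), and the median was -0.28. Over all 13450 genes 5.81% fell and 7.26% rose. The neuronal tubulin gene Tubb3 was at 3558 against 2994 CPM and the growth-associated stathmin gene Stmn2 at 2996 against 2332 CPM, both slightly above 0. The transcription factor genes Pou4f2 and Pou4f3 fell, from 16.5 to 7.15 CPM and from 30.1 to 16.1 CPM across the sides (edgeR adjusted p = 0.006 and adjusted p = 0.00962), as did the synaptic vesicle calcium sensor gene Syt1 (log2 -0.67). Its relative Syt4 was the member that rose (log2 0.51, edgeR adjusted p = 0.0404).

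Potassium channels, which hold neurons back from firing, fell in 20 of 42 cases and none rose (edgeR; 1 without the no-injury pool, 20 with DESeq2 on all libraries), and 37 had ratios below 0 (median -0.70). Kcna2, a channel of the juxtaparanode, was at 304 CPM in the injured and 587 CPM in the contralateral library of day 3, at 498 and 662 CPM at day 1, 319 and 615 CPM at day 7 and 752 and 680.0 CPM left and right in the no-injury pool (log2 -0.95, interval -0.99 to -0.91, edgeR adjusted p = 0.0278). The injured side was below the contralateral one at each day. The A-type channel partner gene Kcnip2 fell from 125 to 59.8 CPM across the sides (edgeR adjusted p = 0.012). The calcium-activated channel gene Kcnn4 and the accessory subunit gene Kcnmb4 had the highest ratios of the list, at log2 0.49 and 0.37, and passed no test.

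In the list of sodium, calcium and HCN channels, of 25 measured genes 9 fell (edgeR; 0 without the no-injury pool). The T-type calcium channel gene Cacna1i fell from 14.8 to 5.66 CPM across the sides (edgeR adjusted p = 0.0111). Cacna2d1, the subunit that binds gabapentin, went the other way, at 777 CPM in the injured and 432 CPM in the contralateral library of day 3, at 410.0 and 329 CPM at day 1, 966 and 369 CPM at day 7 and 272 and 277 CPM left and right in the no-injury pool, and did not pass (edgeR adjusted p = 0.29).

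Among 26 inhibitory receptor genes 11 fell and 1 rose (edgeR; 0 and 0 without the no-injury pool), against 5.81% and 7.26% of all 13450 genes. The mu opioid receptor gene Oprm1 fell from 17.2 to 8.59 CPM across the sides (edgeR adjusted p = 0.0118), with 17.7 and 16.5 CPM at day 1 and 11.6 and 13.7 CPM at day 7, so the sides lay furthest apart at day 3. The delta and kappa receptor genes Oprd1 and Oprk1 were at log2 -1.10 and -1.11 and did not pass (edgeR adjusted p = 0.07 and adjusted p = 0.199). The GABA-A subunit genes Gabrg1 and Gabra5 had ratios of log2 0.73 and 0.39 without passing. The neuropeptide Y receptor gene Npy1r was the member that rose, at 52.5 against 39.2 CPM (edgeR adjusted p = 0.0448).

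Nicotinic receptor subunits gave the lowest ratio of day 3. Chrnb4 (chromosome 9, 55028154 to 55048779, GRCm38) was at 1.86 CPM in the injured and 8.7 CPM in the contralateral library of day 3, at 10.6 and 4.96 CPM at day 1, 2.93 and 4.53 CPM at day 7 and 5.83 and 8.82 CPM left and right in the no-injury pool (log2 -2.17, interval -2.76 to -1.73, edgeR adjusted p = 0.157). At day 1 the injured side was the higher one (log2 1.08), and its partner Chrna3, at 6.96 against 16.7 CPM at day 3, had the same turn (log2 1.26 at day 1 and -1.25 at day 3). Chrna5, of the same gene cluster, was at 2.83 against 1.33 CPM. None of these 3 passed the test. Chrna6 (chromosome 8, 27403212 to 27413944), whose receptors in sensory neurons are known to inhibit purinergic receptors, was at 28.1 CPM in the injured and 69.9 CPM in the contralateral library of day 3, at 43.7 and 75.2 CPM at day 1, 32.6 and 59.8 CPM at day 7 and 64.5 and 63.4 CPM left and right in the no-injury pool, and fell (log2 -1.31, interval -1.46 to -1.18, edgeR adjusted p = 0.00076). The injured side was the lower at all 3 days.

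The rest of the 10 lowest ratios lay in scarce genes. The organic solute transporter gene Slc51a was at 0.696 against 3.14 CPM (log2 -2.03) and the secreted signalling gene Nell1 at 1.02 against 3.47 CPM (log2 -1.68), and both fell (edgeR adjusted p = 0.0182 and adjusted p = 0.0191). The galanin receptor gene Galr1 fell as well, from 2.8 to 0.882 CPM across the sides (edgeR adjusted p = 0.0368). Among genes with 1000 or more reads, the guanine nucleotide exchange factor Rasgrp1 was at 101 CPM in the injured and 230.3 CPM in the contralateral library of day 3, at 155 and 192 CPM at day 1, 109.6 and 193 CPM at day 7 and 222 and 217 CPM left and right in the no-injury pool (edgeR adjusted p = 0.0108), and the potassium channel partner Dpp10, the G protein regulator Rgs8 and the genes Minar1, Wipf3 and Tmem72 fell to between 2.47-fold and 2.24-fold lower levels.

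**Figure D4:**
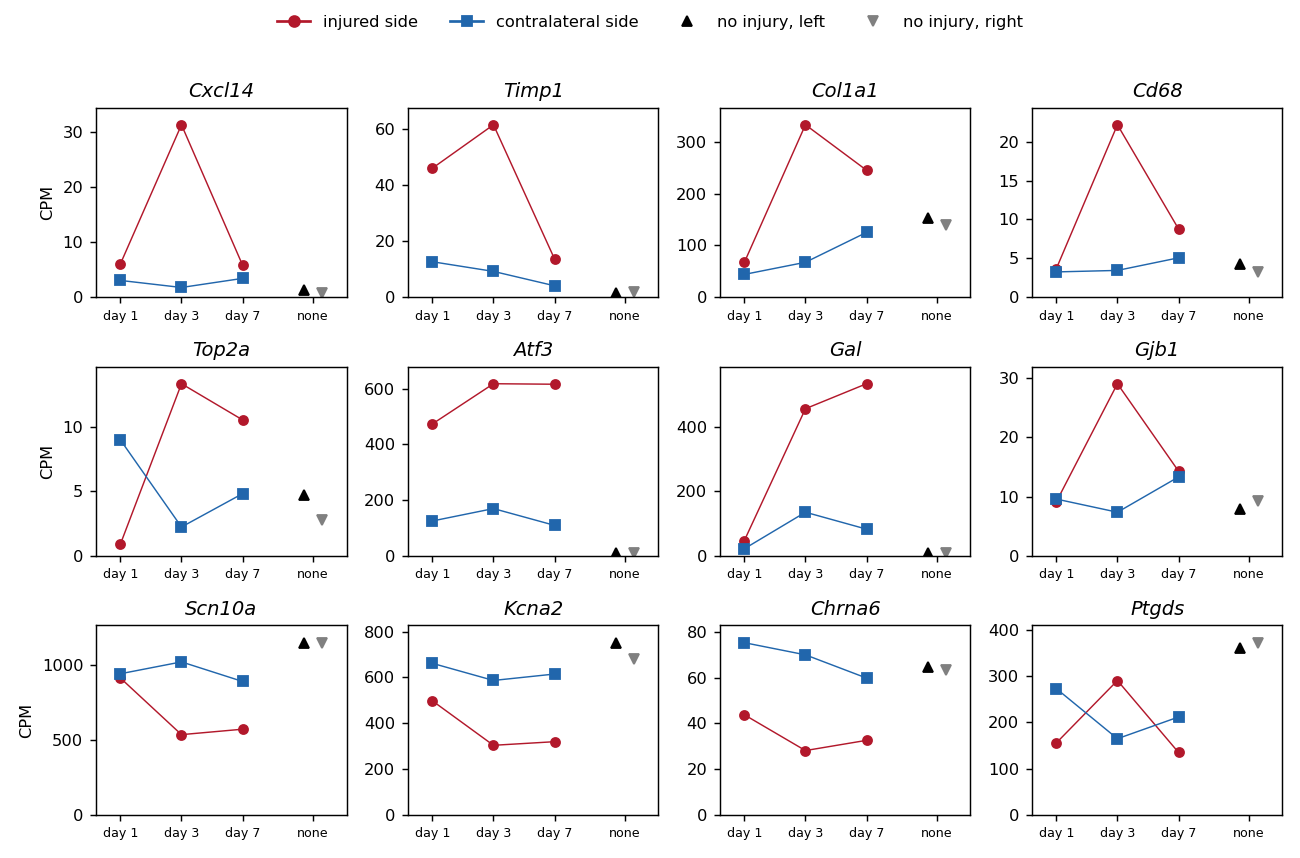
Level of 12 genes in all 8 libraries, in CPM on a linear axis from 0. Red circles are injured and blue squares contralateral libraries at days 1, 3 and 7, the triangles are the left and right no-injury libraries, and lines join pools of different mice, 1 library a point, so there are no error bars. Cxcl14, Timp1, Col1a1, Cd68 and Gjb1 peak in the injured library of day 3, Scn10a, Kcna2 and Chrna6 have their lowest level there, and Gal is highest in the injured library of day 7.

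Several lists showed little difference. None of 24 sterol synthesis genes reached 2-fold or passed the test (median -0.04), and of 19 genes of glycolysis and hypoxia 2 rose (none without the no-injury pool), the lactate transporter gene Slc16a3 and the glucose transporter gene Slc2a1 (160.3 against 74.4 CPM, edgeR adjusted p = 0.0177). None of 22 genes of the unfolded protein response reached 2-fold, and 8 rose (none without the no-injury pool), led by the chaperone partner gene Sdf2l1 (log2 0.95). The 7 measured mitochondrially encoded genes had a median of 0.13, and the other 6, among them mt-Co2, mt-Co3 and mt-Atp6, were listed at 0 in both libraries. These genes are abundant in every cell, so a 0 in this table need not mean that a gene was not expressed. Markers of skeletal muscle, bone, skin, fat and spinal cord glia in the day 3 libraries were low. Muscle markers summed to 20.9 and 18 CPM, skin markers to 4.78 and 4.56 CPM, fat markers to 2.46 and 2.99 CPM and spinal cord glia markers to 9.89 and 13.8 CPM. Of this last sum Aqp4, which is in the satellite glia list too, held 7.66 and 12.4 CPM. Bone and cartilage markers summed to 15.3 and 9.22 CPM. Of 7 measured genes of the bone and cartilage list, 3 were at least 2-fold higher. Col2a1 (5.76 against 1.38 CPM) and Ctsk (14.3 against 5.27 CPM) rose. The myelin gene Mog of the central nervous system and the keratin gene Krt5 were listed at 0 in both libraries, as was the osteocalcin gene Bglap, whose reads can be shared with near-identical copies.

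Whether genes differed at day 3 from the other days was tested by the contrast of the day 3 term with that of days 1 and 7. It called 2 of 17286 genes higher (0.0116%) and none lower (0%) by edgeR, with 889 higher and 520 lower at an unadjusted p under 0.05. DESeq2 called 27 higher and 0 lower, and limma-voom 0 and 0. Aebp1, a matrix protein that binds collagen (chromosome 11, 5861947 to 5872088), was at 96.6 CPM in the injured and 23.4 CPM in the contralateral library of day 3, at 31.6 and 20.4 CPM at day 1, 42 and 28.7 CPM at day 7 and 42.5 and 41.5 CPM left and right in the no-injury pool. The day 3 term exceeded that of the other days by 1.46 on the log2 scale (SE 0.13, edgeR adjusted p = 0.0272). Ptgds, the prostaglandin D synthase of the meninges (chromosome 2, 25466709 to 25470046), was at 290.1 CPM in the injured and 164 CPM in the contralateral library of day 3, at 155 and 273 CPM at day 1, 135 and 211 CPM at day 7 and 359 and 372 CPM left and right in the no-injury pool. The injured side was the higher at day 3 and the lower at days 1 and 7, a difference of 1.55 (SE 0.13, edgeR adjusted p = 0.0272), and the no-injury libraries lay above all 6 operated ones. No other gene can be called particular to day 3 from this test. The count depends on the pools, with 58 higher and 7 lower without the day 1 pool, 553 and 500 without the day 7 pool and 0 and 0 without the no-injury pool.

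The days compared by their own values show where day 3 stood. Of the 843 genes at least 2-fold higher at day 3, 136 were at least 2-fold higher at day 1, 293 at day 7 and 91 on both days. Their median log2 ratio was 0.36 at day 1, 1.42 at day 3, 0.74 at day 7 and 0.15 left over right, and 93 were at least 2-fold lower at day 1. Of the 153 lower genes 153 had ratios below 0 at day 7 and 137 at day 1, with medians of -0.36, -1.12 and -0.82 at days 1, 3 and 7 and 0 past 2-fold left over right. Since genes were taken by their day 3 value, a lower value on another day follows in part from the choice.

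Against the no-injury libraries, the injured library of day 3 lay above both for 797 of the 843 higher genes and below both for 150 of the 153 lower genes. The contralateral library was below both for 427 of the higher genes and above both for 289. Of the lower genes the contralateral library was above both for 84 and below both for 43. Of all 13450 genes, 39.9% had the contralateral library below both and 40.3% above both, and 44% had the injured library above both and 44.8% below both. Both sets were taken by the ratio of the sides, which fixes part of these counts, so nothing is read from them. Time after surgery, the sex of the mice and the pool cannot be told apart in a difference from the no-injury pool.

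**Figure D5:**
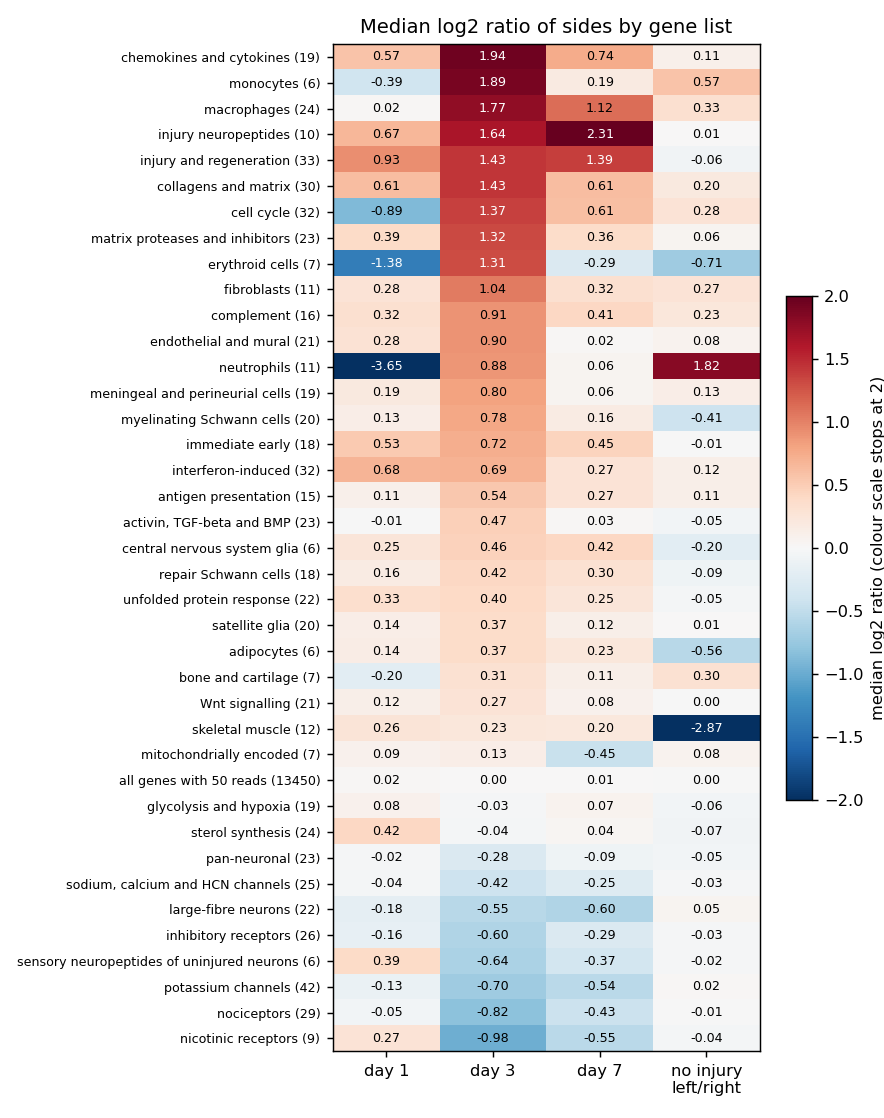
Median log2 ratio of sides for the gene lists with 6 or more measured members (y axis, number of members in brackets, ordered by the day 3 value) in the pools of days 1, 3 and 7 and left over right in the no-injury pool (x axis); red is higher and blue lower on the injured or left side, and the numbers are the medians. Macrophage genes have 0.02 at day 1, 1.77 at day 3 and 1.12 at day 7, while injury neuropeptides are highest at day 7.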

How the data were processed

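RNA of pooled mouse dorsal root ganglia was sequenced as 8 libraries, 1 per group. The authors' deposited table holds raw read counts per Ensembl gene ID, not normalised. The submitters' processing notes name GRCm38, DESeq2, featureCounts 1.6.3, STAR 2.5.4a and cutadapt 1.16. No source used here gives their settings, the strand or the treatment of reads that match several places, so values of near-identical copies (Hba-a1 and its copy, Hbb-bs, Ifit3 and Ifit3b) and of overlapping or antisense genes are uncertain.

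Names and positions came from GENCODE annotation of GRCm38, and promoter sequence from RefSeq (GRCm38.p6). CPM used edgeR 4.0.16 TMM factors from the genes that pass its filter (filterByExpr, minimum count 10). TMM over all genes was used first, and the change was made after its counts (829 higher, 164 lower) were seen. The ratio of sides used a prior count of 2, genes with 50 or more reads in the higher library and a limit of 2-fold. Counting intervals are exact conditional binomial intervals at 95% and, like the limit of 3 reads, cover counting error only. With 1 library a group, the edgeR quasi-likelihood test (limma 3.58.1, DESeq2 1.42.0 as alternatives) takes its spread from the other pools, and its p-values refer to that spread only. The fit was run on simulated counts with changes planted in the injured library of day 3. These counts had a fixed dispersion and no pool effects, so the run does not measure error rates for these data. Sides of 1 pool come from the same mice, which is the pairing. The correlation of their deviations from the group means over 17286 genes was 0.24, -0.02 and 0.33 for the pools of days 1, 3 and 7.

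The members and the 41 gene lists were chosen with earlier results of these data known. Named by rule were the 10 highest and 10 lowest ratios, the 8 highest and 8 lowest among genes with 1000 reads, up to 4 genes each way per list, genes called in the contrast of day 3 with the other days and 5 injury genes that check the labels, leaving out predicted genes. Other genes named were chosen after their values were seen. A few genes are not reported here.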

Additional observations from a re-analysis of the deposited data

Results flagged for a closer look

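The side difference of 2 genes at day 3 differed from that at days 1 and 7 in the test of the difference itself. For Ptgds the difference was 1.55 on the log2 scale and for Aebp1 1.46, each at an edgeR adjusted p = 0.0272. Ptgds was higher on the injured side in the 1 pool of day 3 and lower in both other operated pools, and Aebp1 was higher in all 3. Neither passed with limma-voom, without edgeR's robust shrinkage or without the no-injury pool.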

How the results depend on the processing

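With 10 reads as the limit 1387 genes were at least 2-fold higher and 360 lower at day 3 (226 and 180 left over right), and with 200 reads 416 and 81 (15 and 37). Against the mean of the no-injury libraries 346 genes were lower. TMM over all genes, chosen after seeing the data, gave 829 and 164. Scalings moved the median of all genes by at most 0.05. DESeq2 called 539 genes higher and 501 lower. Without the replicate block (the pool term) 0 and 0 were called, with 1561 and 1492 at an unadjusted p under 0.05. Without the day 1 pool 2222 and 1888 were called, without the day 7 pool 2287 and 2100, and without the no-injury pool 263 and 40. Left over right is the only residual spread in the fits without the day 1 or the day 7 pool. In the fit without the no-injury pool that spread is the difference between days 1 and 7. The day 3 coefficient rests on the day 3 libraries alone, so its sign cannot change with the other pools. Of 88 named genes called by edgeR, 58 passed with DESeq2, 83 with limma-voom, 39 without the no-injury pool and 0 without the block.

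For the contrast of day 3 with days 1 and 7, 86 genes were higher and 1 lower with no filter, 27 higher with DESeq2, and 0 with limma-voom, without robust shrinkage, without the block or without the no-injury pool (892, 911, 416 and 683 higher at an unadjusted p under 0.05). Without the day 1 pool 58 were higher and 7 lower, and without the day 7 pool 553 and 500. Against the mean of the no-injury libraries, the medians of the neutrophil (-0.87) and mast cell (-0.20) lists turned negative, as did Tpsb2 (-0.36), Cpa3 (-0.031), Mcpt4 (-0.86), Aldh1a2 (-0.43) and Ptgds (-0.33). The causes were not tested. Low counts limit the scarce genes, whose intervals are wide.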
